A study of Mus musculus with 3 samples.

Results

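The Wnt pathway genes described here are 56 mouse genes for Wnt ligands, their export, extracellular antagonists, receptors, Dishevelled proteins, the beta-catenin destruction complex, beta-catenin with its coactivators, and corepressors. They were chosen by name and found through their Entrez gene numbers among the 17997 genes listed in at least 1 of 3 RNA-seq libraries. All 56 had a row in at least 1 library, and 47 reached 1 FPKM (fragments scaled to transcript length and library total) in at least 1 library, which is called measured here. The pathway's transcription factors and its direct target genes are outside this set and appear only as a comparison list.

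The cells were 46C mouse embryonic stem cells of strain 129, a line with a fluorescent reporter at Sox1, grown on gelatin with serum and LIF, the cytokine that holds them undifferentiated. The 3 libraries were Lef1 P5 and Lef1 P2, from cells given Lef1 in the PB vector and taken at passage 5 and passage 2, and empty vector P2, from cells given the PB vector without an insert and taken at passage 2. Whether the cells were clones or pools and what drives Lef1 are points not given in the sources used here. Each group has 1 library, so no test between groups was possible, and every interval below is a 95% counting interval that leaves out the difference between cultures and the copying of molecules during amplification. Between Lef1 P5 and empty vector P2, the introduced gene and the passage cannot be told apart. Both Lef1 libraries were set against the same empty-vector library, so those comparisons share it.

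Wnt proteins are lipid-modified in the secreting cell by Porcn, carried to the surface by Wls and bound on the receiving cell by Frizzled receptors together with Lrp5 or Lrp6. Without a Wnt signal, a complex of Axin, Apc, casein kinase 1 and Gsk3 marks beta-catenin for removal, and with a signal Dishevelled helps to switch that complex off. Beta-catenin then binds Lef and Tcf factors on DNA, brings in coactivators such as Bcl9 and Pygopus, and takes the place of Groucho/Tle corepressors. In mouse embryonic stem cells this pathway is known for supporting self-renewal.

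The sequences shown first are promoter windows that contain the short DNA core read by Lef and Tcf factors, because Lef1 is the gene that was introduced. The core was searched on both strands in its forms CTTTGAA (found in the Gsk3a window), CTTTGAT (found for Wnt11 and Wnt5b), CTTTGTT (found for Fzd7 and Wnt3) and CTTTGTA (found for none of the members). The windows ran from 250 bases before to 50 bases after each gene's start (RefSeq, GRCm38.p6). Read on the opposite strand, these letters also match the core known for Sox factors. Of the 56 genes 36 had a window in the table, and 5 of these (13.9%) held the core, against 18.9% of all 27025 genes in the table. Of the 31 members with a window that were measured, 4 (12.9%) held it, against 13.5% of the 10284 measured genes that have a window there. The windows of these measured members held a median of 29 CG pairs, against 20 for windows of measured genes. The 250 bases before the start are given for the 4 of these 5 genes that were measured, with the core in capitals. Wnt3, the other one, was below 1 FPKM in every library.
Fzd7 (chr1:59481897-59482146, plus strand): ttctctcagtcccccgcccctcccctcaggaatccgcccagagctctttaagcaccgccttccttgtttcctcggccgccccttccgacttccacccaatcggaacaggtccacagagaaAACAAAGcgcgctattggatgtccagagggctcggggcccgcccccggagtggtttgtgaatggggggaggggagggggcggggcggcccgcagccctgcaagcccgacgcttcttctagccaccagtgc
Gsk3a (chr7:25237852-25238101, minus strand): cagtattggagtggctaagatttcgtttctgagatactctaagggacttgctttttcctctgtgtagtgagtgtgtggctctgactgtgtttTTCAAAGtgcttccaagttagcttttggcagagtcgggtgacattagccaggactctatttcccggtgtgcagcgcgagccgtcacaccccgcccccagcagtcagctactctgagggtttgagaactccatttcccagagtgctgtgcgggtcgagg
Wnt11 (chr7:98834862-98835111, plus strand): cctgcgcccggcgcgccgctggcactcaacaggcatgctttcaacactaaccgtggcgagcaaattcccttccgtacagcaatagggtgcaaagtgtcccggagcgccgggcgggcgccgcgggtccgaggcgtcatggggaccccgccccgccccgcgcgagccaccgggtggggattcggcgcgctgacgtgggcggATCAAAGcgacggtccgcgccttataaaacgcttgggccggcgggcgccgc
Wnt5b (chr6:119449387-119449636, minus strand): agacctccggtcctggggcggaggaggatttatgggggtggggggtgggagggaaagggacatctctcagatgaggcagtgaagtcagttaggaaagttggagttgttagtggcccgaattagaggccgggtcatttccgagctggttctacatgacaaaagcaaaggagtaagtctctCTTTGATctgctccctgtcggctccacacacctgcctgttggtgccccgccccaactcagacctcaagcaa

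In Fzd7, Gsk3a and Wnt11 the core stands on the opposite strand, so the capitals are its reverse complement. The first base of the capitals lay 130 bases before the start of Fzd7, 158 before Gsk3a, 51 before Wnt11 and 71 before Wnt5b. A match is only a run of letters, and binding was not measured. The levels of these 4 genes did not move together: in Lef1 P2 against empty vector P2, Wnt11 was 5.31-fold, Wnt5b 1.18-fold, Gsk3a 0.935-fold and Fzd7 0.712-fold.

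Lef1 itself was at 214 FPKM in Lef1 P5, 135 FPKM in Lef1 P2 and 1.49 FPKM in empty vector P2, in the order of the labels. The libraries held 9380813, 9170554 and 9225401 expected reads in the same order. For a transcript of 1 kb, 3 reads are worth between 0.32 and 0.327 FPKM in these libraries. All 10 stem cell markers were at 48.2 FPKM or more in each library, with summed levels of 6783 FPKM in Lef1 P5, 6165 FPKM in Lef1 P2 and 6881 FPKM in empty vector P2. Most of each sum is Dppa5a, at 3771 to 3818 FPKM. By the 1.5-fold rule given next, 2 of the 10 were lower in Lef1 P2 than in empty vector P2, Pou5f1 (0.620-fold) and Utf1 (0.514-fold). Of all genes, 8.07% were lower there. The 12 primitive, visceral and parietal endoderm markers summed to 228 FPKM in Lef1 P5, 825 FPKM in Lef1 P2 and 56.7 FPKM in empty vector P2, and Afp was listed in none of them. Col4a1 and Lama1 made up most of each sum, at 73.4 and 85.2 FPKM in Lef1 P5, 316 and 277 FPKM in Lef1 P2, and 17.0 and 24.0 FPKM in empty vector P2. By the 2-fold rule, also given next, 7 of 9 tested were higher in Lef1 P5 than in empty vector P2, where 1.40% of all genes were. In Lef1 P2 all 11 tested were higher, where 6.49% of all genes were. Many of the values below also stand apart in Lef1 P2, and the part of endoderm-like cells in them was not tested. In bulk RNA, more cells that express a gene and more RNA per cell cannot be told apart. The 8 fibroblast and feeder markers summed to 7.70, 10.5 and 17.2 FPKM in that order of libraries, most of it Thy1, with Postn, Lum and Fap listed in none. The 6 neural progenitor markers summed to 7.26 FPKM in Lef1 P5, 9.76 FPKM in Lef1 P2 and 11.8 FPKM in empty vector P2. These markers did not move together. Neurod1 was at 2.53, 2.46 and 7.95 FPKM in that order, and Nes went the other way, at 3.77, 5.50 and 2.20 FPKM.

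Genes were called by size in 2 ways. The 2-fold rule asks for a log2 ratio of at least 1 in size after adding 1 FPKM to both levels, with at least 3 FPKM and 20 reads in the higher library. The 1.5-fold rule asks for a plain FPKM ratio of at least 1.5 either way, at least 1 FPKM in the higher library, and counting intervals that do not overlap. Neither is a test between conditions. A fold given below is the plain quotient of deposited FPKM values, with its interval in brackets.

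Few Wnt pathway genes met the 2-fold rule, and by the 1.5-fold rule they were called about as often as other genes. In Lef1 P5 against empty vector P2, 0 of 34 members met the 2-fold rule, where 2.69% of all 10121 genes tested did (1.40% higher and 1.28% lower). In Lef1 P2 against empty vector P2, 2 of 33 (6.06%) met it, Dkk3 and Bcl9l, both higher, where 8.31% of 10651 genes did (6.49% higher and 1.82% lower). In Lef1 P5 against Lef1 P2, 1 of 34 (2.94%) met it, Bcl9l, which was lower, where 8.74% of 10593 genes did (1.88% higher and 6.86% lower). By the 1.5-fold rule the members called were 6 of 43 (14.0%) in Lef1 P5 against empty vector P2, 13 of 46 (28.3%) in Lef1 P2 against empty vector P2 and 13 of 45 (28.9%) in Lef1 P5 against Lef1 P2. The shares of all genes called by that rule were 13.2%, 28.9% and 30.9%, so each share of members was near that of all genes.

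In each comparison as deposited, the more frequent direction of these calls was that of all genes. In Lef1 P2 against empty vector P2, 10 members were higher (21.7%, with 20.8% of all genes higher) and 3 lower (6.52%, with 8.07% of all genes lower). In Lef1 P5 against Lef1 P2, 2 were higher (4.44%, against 7.88% of all genes) and 11 lower (24.4%, against 23.0%). In Lef1 P5 against empty vector P2, 1 was higher (2.33%, against 5.60%) and 5 lower (11.6%, against 7.60%), a more uneven split than over all genes, but on few calls. The split of higher and lower calls depended on the scaling between libraries. With TMM rescaling (trimmed mean of M values) the members split 5 higher and 6 lower in Lef1 P2 against empty vector P2, and 4 higher and 5 lower in Lef1 P5 against Lef1 P2. Over all genes, the share of 1.5-fold calls that were higher was 72.1% as deposited and 53.0% with TMM in Lef1 P2 against empty vector P2, and 25.5% and 46.5% in Lef1 P5 against Lef1 P2.

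The median log2 ratio of the 47 measured members, on the log2(FPKM + 1) scale, was -0.10 in Lef1 P5 against empty vector P2, 0.01 in Lef1 P2 against empty vector P2 and -0.23 in Lef1 P5 against Lef1 P2. The medians of all 12894 measured genes were -0.02, 0.11 and -0.17, so the members lay 0.08, 0.11 and 0.06 below them. TMM moved the median of all genes by 0.02, -0.14 and 0.16 in these comparisons. Relative to that shift, the members still lay 0.09, 0.09 and 0.04 below all genes. The members' transcripts had a median length of 3421 bases against 2719 for all measured genes.

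**Figure D1:**
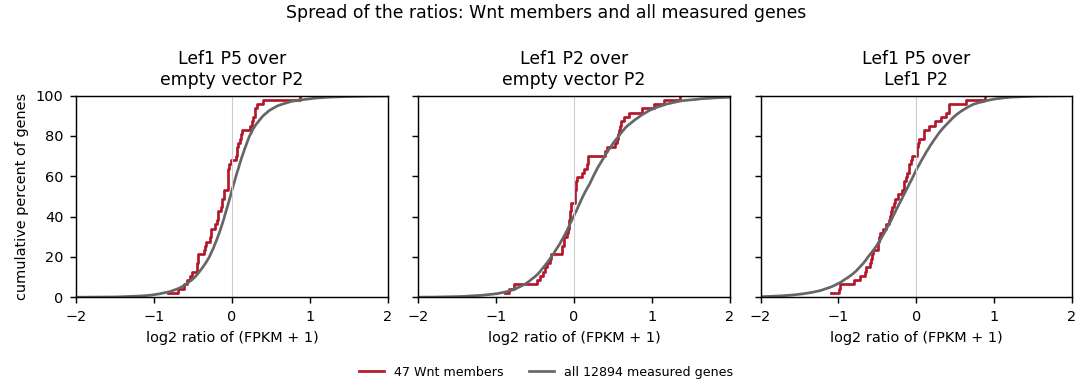
Cumulative percent of genes (vertical axis) against the log2 ratio of FPKM + 1 (horizontal axis) in the 3 comparisons, for the 47 measured Wnt members (red steps) and all 12894 measured genes (grey). The red and grey curves run close together in each panel.

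Among the 11 ligand genes, 4 reached 1 FPKM in at least 1 library. Wnt11 and Wnt7b did so only in Lef1 P2. They count as measured through the library in which they were highest, so their number among the measured ligands shows nothing further. Wnt11, a ligand best known for beta-catenin-independent signalling, was at 0.55 FPKM in Lef1 P5 (14 reads), 1.70 FPKM in Lef1 P2 (43 reads) and 0.32 FPKM in empty vector P2 (8 reads). It was 5.31-fold higher in Lef1 P2 than in empty vector P2 (2.47 to 13.1), and 0.323-fold in Lef1 P5 relative to Lef1 P2 (0.164 to 0.603). Wnt7b was at 0.54 FPKM in Lef1 P5 (17 reads), 2.03 FPKM in Lef1 P2 (62 reads) and 0.65 FPKM in empty vector P2 (20 reads), 3.12-fold higher in Lef1 P2 than in empty vector P2 (1.86 to 5.46) and 0.266-fold in Lef1 P5 relative to Lef1 P2 (0.146 to 0.461). Both genes were thus high in Lef1 P2 and low in the other libraries, where their intervals overlapped. Both met the 1.5-fold rule and stayed under the 3 FPKM of the 2-fold rule.

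The other measured ligands varied within counting error. Wnt6 was at 1.53 FPKM in Lef1 P5, 1.63 FPKM in Lef1 P2 and 1.72 FPKM in empty vector P2, 0.890-fold in Lef1 P5 (0.519 to 1.52) and 0.948-fold in Lef1 P2 (0.556 to 1.61). Wnt5b was at 1.08 FPKM in Lef1 P5, 0.85 FPKM in Lef1 P2 and 0.72 FPKM in empty vector P2, with 14 to 21 reads. Wnt3, Wnt3a, Wnt4, Wnt5a, Wnt7a, Wnt8a and Wnt10a stayed between 0 and 0.67 FPKM in all 3 libraries, and none of them met either rule as deposited. Wnt3, a ligand needed for gastrulation in the mouse, had 4 reads in Lef1 P5, 10 in Lef1 P2 and no row in empty vector P2, where a count of 0 allows about 0.106 FPKM (3 reads, each worth what it is worth in the libraries that list the gene). Wnt7a had no row in Lef1 P5, where a count of 0 allows about 0.101 FPKM, 3 reads in Lef1 P2 and 7 in empty vector P2. Summed over the 11 genes, ligand transcripts came to 5.45 FPKM in Lef1 P5, 8.48 FPKM in Lef1 P2 and 5.38 FPKM in empty vector P2, far below the receptors.

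Both export genes were expressed at each passage. Porcn, the acyltransferase that adds the lipid, was at 8.83 FPKM in Lef1 P5, 6.34 FPKM in Lef1 P2 and 7.01 FPKM in empty vector P2. Wls, the carrier of lipid-modified Wnt proteins, was at 3.14 FPKM in Lef1 P5, 2.32 FPKM in Lef1 P2 and 2.30 FPKM in empty vector P2. Porcn was 1.39-fold in Lef1 P5 relative to Lef1 P2 (1.08 to 1.80) and Wls 1.35-fold (0.948 to 1.94), and neither was called. With median-of-ratios and TMM rescaling Porcn passed the 1.5-fold rule in that comparison (1.53-fold and 1.58-fold).

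Of the extracellular antagonists, Dkk3 was higher and several others lower. Dkk3, a divergent member of the Dickkopf family of secreted proteins, was at 7.35 FPKM in Lef1 P5 (228 reads), 10.7 FPKM in Lef1 P2 (324 reads) and 3.54 FPKM in empty vector P2 (108 reads). It was 2.08-fold higher in Lef1 P5 (1.64 to 2.63) and 3.03-fold higher in Lef1 P2 (2.43 to 3.80) than in empty vector P2. The order was Lef1 P2, Lef1 P5, empty vector P2, with no overlap of counting intervals. The value in Lef1 P5 stayed just under the 2-fold rule because of the added 1 FPKM, with a log2 ratio of 0.88, and met the rule with 0.1 FPKM added instead.

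The secreted Frizzled-related proteins bind Wnt proteins outside the cell. Sfrp1 was at 14.3 FPKM in Lef1 P5, 15.9 FPKM in Lef1 P2 and 21.9 FPKM in empty vector P2, 0.652-fold in Lef1 P5 relative to empty vector P2 (0.586 to 0.725) and 0.729-fold in Lef1 P2 (0.657 to 0.808). Its call as lower in Lef1 P5 was lost with median-of-ratios rescaling (0.670-fold), and in Lef1 P2 it became one with TMM (0.653-fold). Sfrp2 was at 8.20 FPKM in Lef1 P5, 9.27 FPKM in Lef1 P2 and 9.70 FPKM in empty vector P2, with overlapping intervals. Sfrp5 was at 0.69 FPKM in Lef1 P5 (12 reads), 0.30 FPKM in Lef1 P2 (5 reads) and 1.41 FPKM in empty vector P2 (24 reads). Its ratio in Lef1 P2 was 0.213 (0.0634 to 0.569), a call that rests on few reads.

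Kremen1 and Kremen2 are surface receptors for Dickkopf proteins. Kremen1 was at 5.59 FPKM in Lef1 P5 (257 reads), 9.28 FPKM in Lef1 P2 (416 reads) and 9.06 FPKM in empty vector P2 (409 reads). It was low in Lef1 P5 alone, 0.617-fold relative to empty vector P2 (0.526 to 0.723), while Lef1 P2 and empty vector P2 did not differ beyond counting error. Relative to Lef1 P2 it was 0.602-fold in Lef1 P5 (0.514 to 0.705), a call lost with TMM (0.683-fold). Kremen2 was at 0.82 FPKM in Lef1 P5, 1.21 FPKM in Lef1 P2 and 1.20 FPKM in empty vector P2, on 16 to 23 reads.

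Among the receptors, Fzd7 and Fzd5 made up most of the Frizzled transcript level, and Fzd7 was lower in Lef1 P2. Together they held 85.6% of the summed Frizzled FPKM in Lef1 P5, 80.5% in Lef1 P2 and 83.1% in empty vector P2. Fzd7 was at 36.8 FPKM in Lef1 P5 (1656 reads), 27.1 FPKM in Lef1 P2 (1191 reads) and 38.1 FPKM in empty vector P2 (1684 reads). It was 0.966-fold in Lef1 P5 (0.902 to 1.03) and 0.712-fold in Lef1 P2 (0.661 to 0.768) relative to empty vector P2. That is short of the 1.5-fold rule as deposited, which it passed in Lef1 P2 with median-of-ratios (0.665-fold) and TMM (0.639-fold). Fzd5 stayed level, at 28.9 FPKM in Lef1 P5, 28.3 FPKM in Lef1 P2 and 30.0 FPKM in empty vector P2, with overlapping intervals. Summed over the 10 genes, Frizzled transcripts came to 76.8 FPKM in Lef1 P5, 68.9 FPKM in Lef1 P2 and 82.0 FPKM in empty vector P2, and the sum in Lef1 P2 stayed below that in empty vector P2 under each of the 4 rescalings (0.753-fold to 0.854-fold).

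The other Frizzled genes were at 5.10 FPKM or less. Fzd10 was next in level, at 4.0 FPKM in Lef1 P5, 4.48 FPKM in Lef1 P2 and 5.10 FPKM in empty vector P2. Fzd3, a receptor known for axon guidance, was at 0.79 FPKM in Lef1 P5 (94 reads), 1.46 FPKM in Lef1 P2 (170 reads) and 1.44 FPKM in empty vector P2 (169 reads), 0.549-fold in Lef1 P5 relative to empty vector P2 (0.422 to 0.710). Fzd9 was at 1.35 FPKM in Lef1 P5 (26 reads), 2.07 FPKM in Lef1 P2 (39 reads) and 2.80 FPKM in empty vector P2 (53 reads), 0.482-fold in Lef1 P5 (0.289 to 0.785). Both were called lower in Lef1 P5 by the 1.5-fold rule, and Fzd3 also relative to Lef1 P2 (0.541-fold, 0.416 to 0.70). Fzd2 was at 1.96 FPKM in Lef1 P5, 1.77 FPKM in Lef1 P2 and 1.85 FPKM in empty vector P2. Fzd4 was at 0.88 FPKM in Lef1 P5, 0.96 FPKM in Lef1 P2 and 1.40 FPKM in empty vector P2. Fzd6 was at 1.05 FPKM in Lef1 P5, 1.57 FPKM in Lef1 P2 and 0.91 FPKM in empty vector P2. None of Fzd2, Fzd4, Fzd6 and Fzd10 was called in any comparison. Fzd1 and Fzd8 stayed under 1 FPKM, the level that the 1.5-fold rule asks for, but some of their intervals lay off 1. Fzd8 was at 0.84 FPKM in Lef1 P5 (26 reads), 0.73 FPKM in Lef1 P2 (22 reads) and 0.26 FPKM in empty vector P2 (8 reads), 3.23-fold in Lef1 P5 (1.42 to 8.26) and 2.81-fold in Lef1 P2 (1.20 to 7.29) relative to empty vector P2. Fzd1 was at 0.20 FPKM in Lef1 P5 (8 reads), 0.40 FPKM in Lef1 P2 (16 reads) and 0.10 FPKM in empty vector P2 (4 reads), with an interval of 1.29 to 16.4 for its ratio in Lef1 P2.

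The coreceptors that Frizzled needs for beta-catenin signalling were lower in Lef1 P5. Lrp5 was at 14.1 FPKM in Lef1 P5, 20.2 FPKM in Lef1 P2 and 19.6 FPKM in empty vector P2, and Lrp6 at 9.41 FPKM in Lef1 P5, 14.3 FPKM in Lef1 P2 and 13.0 FPKM in empty vector P2. In Lef1 P5 relative to empty vector P2, Lrp5 was 0.721-fold (0.652 to 0.797) and Lrp6 0.723-fold (0.660 to 0.791). Both were under 1 in that comparison with each rescaling, and neither met the 1.5-fold rule against empty vector P2. Relative to Lef1 P2, Lrp6 in Lef1 P5 was called lower (0.656-fold, 0.60 to 0.717), but not with median-of-ratios (0.721-fold) or TMM (0.744-fold).

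Ror2 and Ryk, the receptor kinase genes among the members, were higher in Lef1 P2 than in empty vector P2. This did not hold for Ptk7 and Ror1, which are on the comparison list. Ptk7 was at 33.0 FPKM in Lef1 P5, 37.7 FPKM in Lef1 P2 and 50.6 FPKM in empty vector P2, and Ror1 at 0.58, 0.16 and 0.19 FPKM. Ror2, a receptor for Wnt5a, was at 6.33 FPKM in Lef1 P5, 9.21 FPKM in Lef1 P2 and 5.70 FPKM in empty vector P2, 1.62-fold higher in Lef1 P2 than in empty vector P2 (1.35 to 1.93). Ryk, a kinase-like Wnt receptor, was at 18.4 FPKM in Lef1 P5, 22.3 FPKM in Lef1 P2 and 14.8 FPKM in empty vector P2, 1.51-fold higher in Lef1 P2 (1.34 to 1.71). Under TMM these ratios were 1.45 and 1.35 and the calls were lost, as that of Ryk was with median-of-ratios (1.41).

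**Figure D2:**
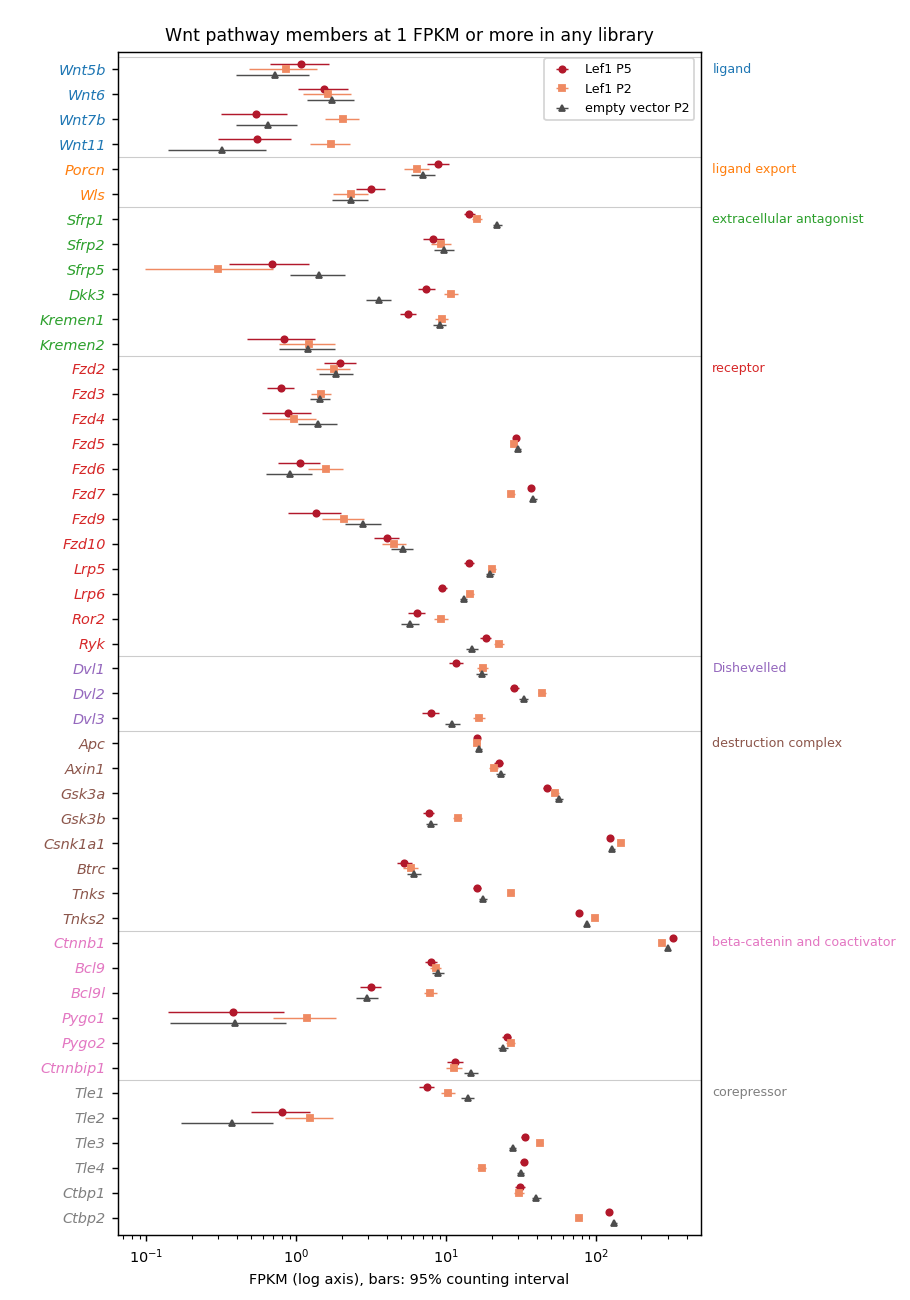
FPKM on a log axis for the 47 members at 1 FPKM or more in any library, grouped by role, with points for Lef1 P5 (circles), Lef1 P2 (squares) and empty vector P2 (triangles) and lines for the 95% counting interval. Ctnnb1 is the most strongly expressed member in each library, at 273 to 325 FPKM, and the 4 ligands shown are at 2.03 FPKM or less.

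The 3 Dishevelled genes, whose products relay the signal from the receptors, were lowest in Lef1 P5 and highest in Lef1 P2, except that Dvl1 in Lef1 P2 was level with empty vector P2 (1.02-fold, and 0.912-fold with TMM). Dvl2 was at 28.5 FPKM in Lef1 P5 (771 reads), 43.4 FPKM in Lef1 P2 (1145 reads) and 32.7 FPKM in empty vector P2 (870 reads). Dvl3 was at 7.86 FPKM in Lef1 P5 (214 reads), 16.6 FPKM in Lef1 P2 (440 reads) and 10.9 FPKM in empty vector P2 (293 reads). Dvl1 was at 11.6 FPKM in Lef1 P5 (361 reads), 17.5 FPKM in Lef1 P2 (547 reads) and 17.2 FPKM in empty vector P2 (536 reads). In Lef1 P5 relative to Lef1 P2, Dvl1 was 0.659-fold (0.575 to 0.754), Dvl2 0.656-fold (0.598 to 0.719) and Dvl3 0.474-fold (0.401 to 0.559). All 3 were called lower there by the 1.5-fold rule, and Dvl3 was with each rescaling (0.538-fold with TMM). The calls of Dvl1 and Dvl2 were lost with TMM (0.747-fold and 0.744-fold) and with median-of-ratios (0.724-fold and 0.721-fold). In Lef1 P2 relative to empty vector P2, Dvl3 was called higher (1.51-fold, 1.30 to 1.76), a call lost with median-of-ratios (1.41) and TMM (1.36). The summed level of the 3 genes was 47.9 FPKM in Lef1 P5, 77.5 FPKM in Lef1 P2 and 60.9 FPKM in empty vector P2.

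The scaffolds of the destruction complex met neither rule in any comparison. Apc, its large scaffold, was at 16.1 FPKM in Lef1 P5, 15.9 FPKM in Lef1 P2 and 16.4 FPKM in empty vector P2, on 1810 to 1885 reads. Axin1, the limiting scaffold, was at 22.3 FPKM in Lef1 P5, 20.6 FPKM in Lef1 P2 and 23.0 FPKM in empty vector P2. Relative to empty vector P2, Apc was 0.976-fold in Lef1 P5 (0.915 to 1.04) and 0.967-fold in Lef1 P2 (0.906 to 1.03), or 0.867-fold with TMM. Axin1 was 0.969-fold in Lef1 P5 (0.875 to 1.07) and 0.896-fold in Lef1 P2 (0.808 to 0.994), or 0.803-fold with TMM. Btrc, which recognises marked beta-catenin for ubiquitination, was at 5.24 FPKM in Lef1 P5, 5.78 FPKM in Lef1 P2 and 6.09 FPKM in empty vector P2, with overlapping intervals.

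The kinases of the complex were less even. Csnk1a1, which places the first phosphate on beta-catenin, was at 124 FPKM in Lef1 P5, 145 FPKM in Lef1 P2 and 127 FPKM in empty vector P2, 0.970-fold in Lef1 P5 (0.914 to 1.03) and 1.14-fold in Lef1 P2 (1.08 to 1.20), or 1.02-fold with TMM. Gsk3a was at 46.7 FPKM in Lef1 P5, 52.9 FPKM in Lef1 P2 and 56.5 FPKM in empty vector P2, 0.826-fold in Lef1 P5 (0.757 to 0.90) and 0.935-fold in Lef1 P2 (0.860 to 1.02). Gsk3b, its close relative, was at 7.61 FPKM in Lef1 P5 (590 reads), 11.9 FPKM in Lef1 P2 (900 reads) and 7.95 FPKM in empty vector P2 (606 reads). Gsk3b was thus high in Lef1 P2, 1.496-fold relative to empty vector P2 (1.35 to 1.66), which falls just short of the 1.5-fold rule. In Lef1 P5 it was 0.640-fold the level in Lef1 P2 (0.576 to 0.711), which met the rule except with median-of-ratios (0.704-fold) and TMM (0.726-fold).

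The tankyrases, which mark Axin for removal, were higher in Lef1 P2 as well in deposited FPKM, but Tnks2 was near level with empty vector P2 under TMM. Tnks was at 16.0 FPKM in Lef1 P5 (962 reads), 26.9 FPKM in Lef1 P2 (1580 reads) and 17.7 FPKM in empty vector P2 (1044 reads). Tnks2 was at 76.5 FPKM in Lef1 P5, 98.1 FPKM in Lef1 P2 and 86.8 FPKM in empty vector P2, 0.881-fold in Lef1 P5 (0.847 to 0.917) and 1.13-fold in Lef1 P2 (1.09 to 1.17). In Lef1 P2 its ratio was 1.055 with median-of-ratios and 1.013 with TMM. Tnks was 1.52-fold in Lef1 P2 relative to empty vector P2 (1.41 to 1.65), against 1.42 with median-of-ratios and 1.37 with TMM, where it was no longer called. In Lef1 P5 relative to Lef1 P2 it was 0.594-fold (0.548 to 0.644), a call lost with TMM (0.674-fold).

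The transcript of beta-catenin itself was the most abundant member and met neither rule in any comparison. Ctnnb1 was at 325 FPKM in Lef1 P5 (10738 reads), 273 FPKM in Lef1 P2 (8827 reads) and 298 FPKM in empty vector P2 (9724 reads). It ranked 199th, 189th and 207th among all genes of these libraries by FPKM. The ratios to empty vector P2 were 1.09 in Lef1 P5 (1.06 to 1.12) and 0.915 in Lef1 P2 (0.889 to 0.942), beyond counting error and far short of either rule. With TMM the ratio in Lef1 P2 was 0.820. Lef1 P5 was 1.19-fold the level of Lef1 P2 (1.16 to 1.22), or 1.35-fold with TMM. These are transcript levels, and the pathway acts mainly on the stability of the protein, which was not measured.

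Among the nuclear partners, Bcl9l stood out. Bcl9 and Bcl9l link beta-catenin to Pygopus. Bcl9l was at 3.12 FPKM in Lef1 P5 (155 reads), 7.82 FPKM in Lef1 P2 (379 reads) and 2.95 FPKM in empty vector P2 (144 reads), 2.65-fold higher in Lef1 P2 than in empty vector P2 (2.18 to 3.23). In Lef1 P5 it was 0.399-fold the level in Lef1 P2 (0.329 to 0.482). Lef1 P2 was high, and Lef1 P5 and empty vector P2 overlapped (1.06-fold, 0.837 to 1.34). Its relative Bcl9 was at 7.91 FPKM in Lef1 P5, 8.47 FPKM in Lef1 P2 and 8.77 FPKM in empty vector P2, with overlapping intervals.

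Of the Pygopus genes, Pygo2 carried nearly all of the level, at 25.2 FPKM in Lef1 P5, 26.9 FPKM in Lef1 P2 and 23.8 FPKM in empty vector P2, 1.06-fold in Lef1 P5 (0.951 to 1.18) and 1.13-fold in Lef1 P2 (1.02 to 1.25), or 1.01-fold with TMM. Pygo1 was at 0.38 FPKM in Lef1 P5 (6 reads), 1.17 FPKM in Lef1 P2 (18 reads) and 0.39 FPKM in empty vector P2 (6 reads). Its ratio of 3.0 in Lef1 P2 has an interval of 1.14 to 9.23, and it was not called. Ctnnbip1, an inhibitor that keeps beta-catenin off Tcf factors, was at 11.4 FPKM in Lef1 P5, 11.3 FPKM in Lef1 P2 and 14.6 FPKM in empty vector P2. It was 0.782-fold in Lef1 P5 (0.666 to 0.917) and 0.774-fold in Lef1 P2 (0.659 to 0.909) relative to empty vector P2, and was not called.

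The corepressors differed in both directions in Lef1 P2. Of the 6 genes, all measured, 4 met the 1.5-fold rule in Lef1 P2 against empty vector P2, Tle2 and Tle3 as higher and Tle4 and Ctbp2 as lower, where 28.9% of all genes did. Shares in this comparison are not given for the other roles, so the corepressors are not shown to be unusual. Tle2 reached 1 FPKM only in Lef1 P2, where it was called higher, and the call of Tle3 was lost with median-of-ratios and TMM. Tle4, a Groucho-family corepressor that binds Tcf and Lef factors, was at 32.7 FPKM in Lef1 P5 (1369 reads), 17.2 FPKM in Lef1 P2 (717 reads) and 31.3 FPKM in empty vector P2 (1313 reads). It was low in Lef1 P2, 0.548-fold relative to empty vector P2 (0.50 to 0.601), and Lef1 P5 and empty vector P2 overlapped (1.04-fold, 0.967 to 1.13). In Lef1 P5 it was 1.90-fold the level of Lef1 P2 (1.74 to 2.09).

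Tle3, its close relative, was at 33.3 FPKM in Lef1 P5 (1600 reads), 42.2 FPKM in Lef1 P2 (1977 reads) and 27.7 FPKM in empty vector P2 (1308 reads). It was 1.52-fold higher in Lef1 P2 than in empty vector P2 (1.42 to 1.63), against 1.42 with median-of-ratios and 1.36 with TMM, where the call was lost. Tle2 was at 0.80 FPKM in Lef1 P5 (21 reads), 1.24 FPKM in Lef1 P2 (31 reads) and 0.37 FPKM in empty vector P2 (9 reads), called higher in Lef1 P2 (3.35-fold, 1.56 to 8.0). Tle1 was at 7.39 FPKM in Lef1 P5 (280 reads), 10.3 FPKM in Lef1 P2 (367 reads) and 13.9 FPKM in empty vector P2 (429 reads), 0.533-fold in Lef1 P5 relative to empty vector P2 (0.457 to 0.621). Part of that difference comes from the length used for Tle1, which has 5 listed transcripts: 4086 bases in Lef1 P5, 3961 in Lef1 P2 and 3406 in empty vector P2. With 1 length for all libraries the ratio was 0.642, and the call held.

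The Ctbp proteins are corepressors shared by many DNA-binding factors. Ctbp2 was at 121 FPKM in Lef1 P5 (3408 reads), 76.9 FPKM in Lef1 P2 (2110 reads) and 132 FPKM in empty vector P2 (3654 reads). It was 0.582-fold in Lef1 P2 relative to empty vector P2 (0.552 to 0.614) and 1.57-fold in Lef1 P5 relative to Lef1 P2 (1.49 to 1.66), with each rescaling on the same side and still called. Ctbp1 was at 31.1 FPKM in Lef1 P5, 30.6 FPKM in Lef1 P2 and 39.9 FPKM in empty vector P2, 0.780-fold in Lef1 P5 (0.706 to 0.862) and 0.767-fold in Lef1 P2 (0.693 to 0.848).

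**Figure D3:**
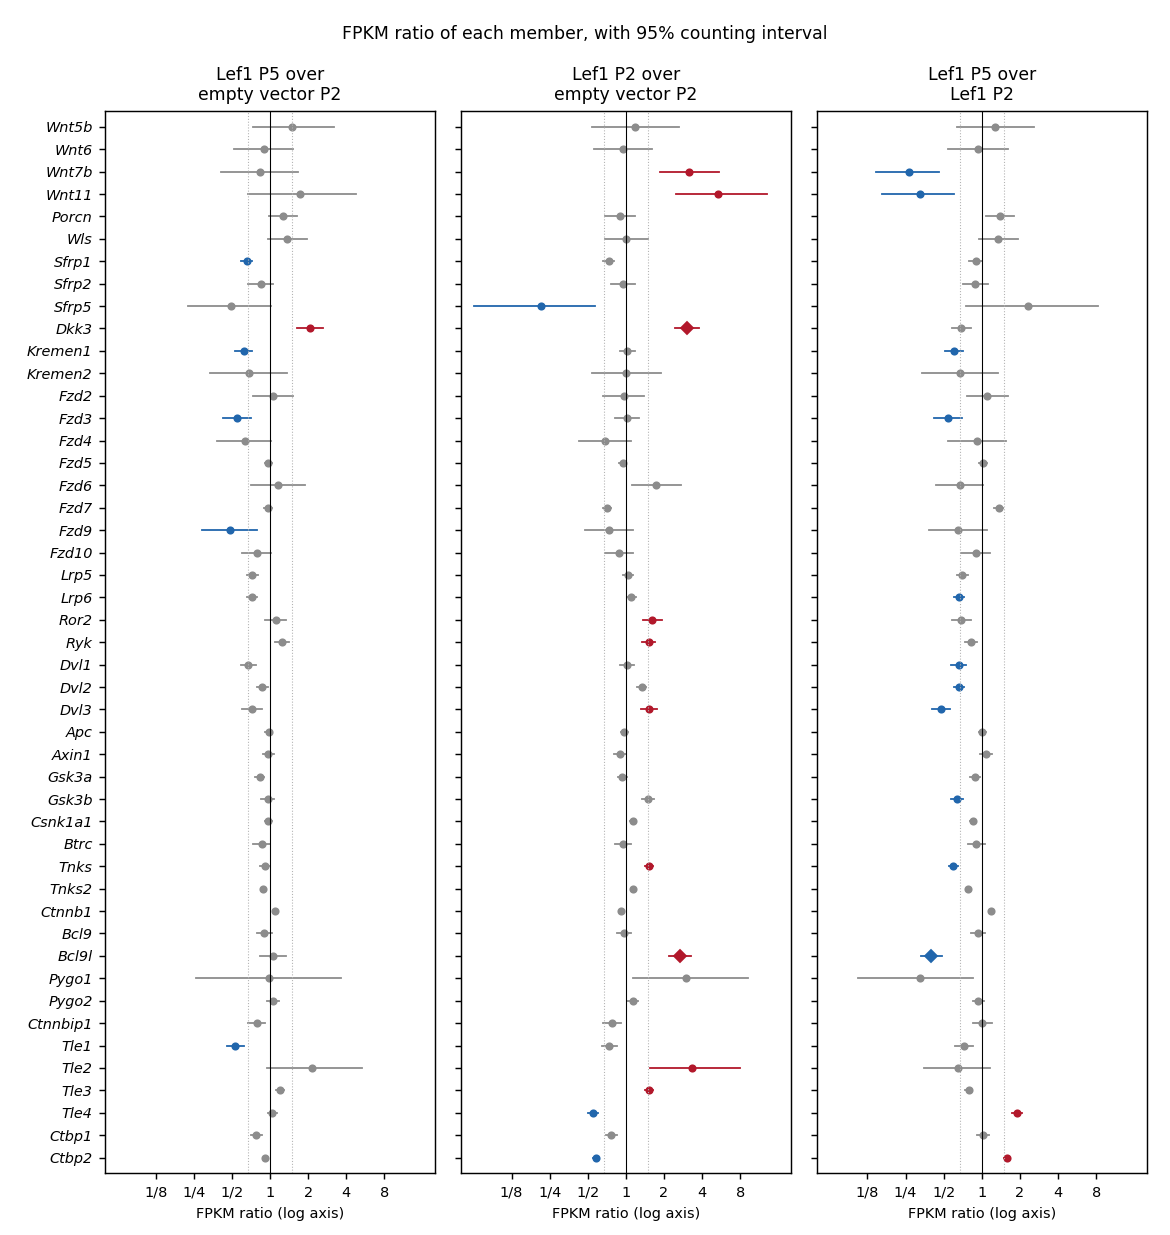
FPKM ratio on a log axis with its 95% counting interval for the 47 measured members in the 3 comparisons, Lef1 P5 and Lef1 P2 each over empty vector P2 and Lef1 P5 over Lef1 P2. Red (higher) and blue (lower) points met the 1.5-fold rule, diamonds also met the 2-fold rule, grey points were not called, and dotted lines mark 1.5-fold either way. Dkk3 and Bcl9l are the diamonds in the middle panel, at 3.03 and 2.65.

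The balance of related genes within a library is a measure that the scaling between libraries does not touch. The 12 pairs compared were chosen after their values were seen. In 7 of them the interval of Lef1 P2 lay apart from those of both other libraries, and in 5 it overlapped at least 1 of them. The share among pairs of other genes was not computed, so these counts show nothing particular to Wnt pathway genes. Over all genes, the 1.5-fold rule called 28.9% in Lef1 P2 against empty vector P2 and 30.9% in Lef1 P5 against Lef1 P2. The ratio of Tle3 to Tle4 FPKM was 1.02 in Lef1 P5 (0.946 to 1.09), 2.46 in Lef1 P2 (2.25 to 2.68) and 0.884 in empty vector P2 (0.819 to 0.956). The ratio of Bcl9l to Bcl9 was 0.394 in Lef1 P5 (0.327 to 0.475), 0.923 in Lef1 P2 (0.804 to 1.06) and 0.336 in empty vector P2 (0.277 to 0.406). The ratio of Fzd7 to Fzd5 was 1.27 in Lef1 P5 (1.19 to 1.36), 0.959 in Lef1 P2 (0.891 to 1.03) and 1.27 in empty vector P2 (1.19 to 1.36). In these pairs Lef1 P2 stood apart from both other libraries.

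The balance of Gsk3a to Gsk3b was 6.13 in Lef1 P5 (5.53 to 6.80), 4.45 in Lef1 P2 (4.06 to 4.86) and 7.11 in empty vector P2 (6.44 to 7.86). That of Tnks2 to Tnks was 4.78 in Lef1 P5 (4.46 to 5.13), 3.64 in Lef1 P2 (3.44 to 3.85) and 4.91 in empty vector P2 (4.59 to 5.25). That of Ctbp2 to Ctbp1 was 3.89 in Lef1 P5 (3.58 to 4.22), 2.52 in Lef1 P2 (2.31 to 2.75) and 3.31 in empty vector P2 (3.08 to 3.57). The ratio of Dvl3 to Dvl1 was 0.681 in Lef1 P5 (0.572 to 0.808), 0.946 in Lef1 P2 (0.832 to 1.07) and 0.636 in empty vector P2 (0.549 to 0.734). These 4 pairs also had Lef1 P2 apart from both other libraries. The ratio of Lrp5 to Lrp6 had overlapping intervals in all 3 libraries, at 1.499 in Lef1 P5 (1.35 to 1.66), 1.41 in Lef1 P2 (1.29 to 1.53) and 1.503 in empty vector P2 (1.38 to 1.64). So did that of Sfrp1 to Sfrp2, at 1.74 in Lef1 P5, 1.72 in Lef1 P2 and 2.25 in empty vector P2. In 2 pairs the Lef1 libraries overlapped and both stood apart from empty vector P2. Tle3 to Tle1 was 4.503 in Lef1 P5, 4.12 in Lef1 P2 and 2.00 in empty vector P2, a pair that the length used for Tle1 bears on, and Dvl2 to Dvl1 was 2.46 in Lef1 P5, 2.48 in Lef1 P2 and 1.90 in empty vector P2. Dvl2 to Dvl3 was 3.62 in Lef1 P5 (3.11 to 4.23), 2.62 in Lef1 P2 (2.34 to 2.93) and 2.99 in empty vector P2 (2.61 to 3.42), where Lef1 P2 overlapped empty vector P2. Lef1 P2 is also the library with the highest endoderm marker sum, and the part of those cells in these balances was not tested.

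**Figure D4:**
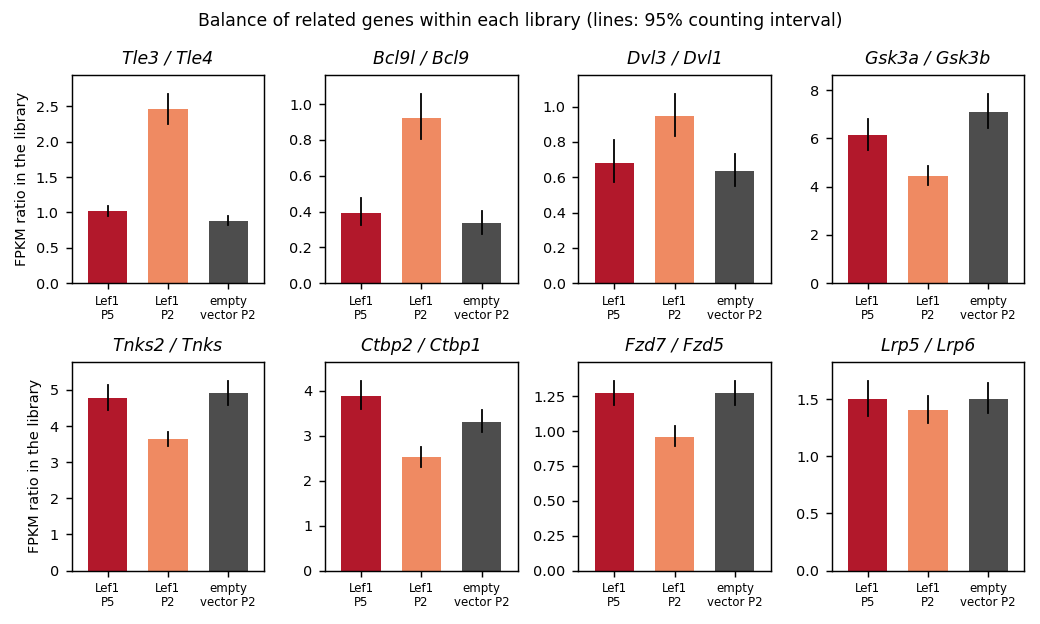
Ratio of FPKM within each library for 8 of the 12 pairs of related genes (bars from 0) with the 95% counting interval (black lines), for Lef1 P5, Lef1 P2 and empty vector P2. Shown are the 7 pairs in which Lef1 P2 lay apart from both other libraries, and Lrp5/Lrp6. The other pairs, in which Lef1 P2 overlapped at least 1 library, are not drawn. The Tle3/Tle4 bar is 2.46 in Lef1 P2, against 1.02 in Lef1 P5 and 0.884 in empty vector P2, and the Lrp5/Lrp6 bars are level.

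The other genes of the pathway, a list of 97 further names that includes receptors' regulators, feedback genes, Tcf factors and planar polarity genes, were set beside the members. The list was written with earlier results of these data known. Of its 69 measured genes, the 2-fold rule called 3 of 56 higher and 1 lower in Lef1 P5 against empty vector P2, 5 of 57 higher and 2 lower in Lef1 P2 against empty vector P2, and 2 of 54 higher and 0 lower in Lef1 P5 against Lef1 P2. The introduced Lef1 is 1 of the higher genes in both comparisons with empty vector P2. Of all genes, 1.40% were higher and 1.28% lower in Lef1 P5 against empty vector P2, 6.49% and 1.82% in Lef1 P2 against empty vector P2, and 1.88% and 6.86% in Lef1 P5 against Lef1 P2. Its median log2 ratios were 0.05, 0.12 and -0.17 in these comparisons, 0.07, 0.00 and 0.00 away from all genes. Besides the introduced Lef1, Tle6, an atypical member of the Groucho family, was called higher in both Lef1 libraries, at 6.68 FPKM in Lef1 P5, 10.4 FPKM in Lef1 P2 and 2.77 FPKM in empty vector P2. Sfrp4, a relative of Sfrp1, was called lower in both, at 2.22 FPKM in Lef1 P5, 2.28 FPKM in Lef1 P2 and 7.36 FPKM in empty vector P2.

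The proteoglycan gene Gpc3 was called higher in Lef1 P2 alone, at 26.1 FPKM in Lef1 P5, 41.6 FPKM in Lef1 P2 and 19.8 FPKM in empty vector P2, as was Tpbg, an inhibitor of Wnt signalling at the membrane, at 4.39 FPKM in Lef1 P5, 6.73 FPKM in Lef1 P2 and 1.93 FPKM in empty vector P2. Notum, an enzyme that removes the lipid from Wnt proteins, was at 5.74 FPKM in Lef1 P5, 1.73 FPKM in Lef1 P2 and 6.57 FPKM in empty vector P2, and was called lower in Lef1 P2. Hdac1, a histone deacetylase that works with Groucho/Tle proteins, was at 141 FPKM in Lef1 P5, 65.9 FPKM in Lef1 P2 and 121 FPKM in empty vector P2, and was called in Lef1 P5 against Lef1 P2. Dkk1, an antagonist that binds Lrp5 and Lrp6, was at 2.43 FPKM in Lef1 P5, 4.49 FPKM in Lef1 P2 and 0.20 FPKM in empty vector P2, and was called higher in Lef1 P2. Axin2, a feedback gene of the pathway, was at 8.01 FPKM in Lef1 P5, 5.89 FPKM in Lef1 P2 and 2.77 FPKM in empty vector P2, and was called higher in Lef1 P5. A call in a single Lef1 library does not mean that the other was level with empty vector P2. Tpbg was 2.275-fold in Lef1 P5 and Axin2 2.13-fold in Lef1 P2, both short of the rule with 1 FPKM added. Dkk1 was 12.15-fold in Lef1 P5, on 50 reads against 4, but under the minimum of 3 FPKM. Gpc3 was 1.32-fold in Lef1 P5.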

How the data were processed

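RNA-seq gene tables of 3 libraries were used, 1 per group. The aligner Bowtie 0.12.2 and the mouse build mm8 are named per the submitters' processing notes, with the counting program, annotation and strand setting not given in the sources used here. Without a stated strand setting, reads of overlapping genes cannot be told apart. Per the file headers, the authors deposited an expected count, a length and an FPKM value per Entrez gene. The deposited expected counts were not whole in 8.49% to 8.61% of listed genes, and among the members only for Wnt4. The deposited FPKM values, scaled by the authors to length and library total, were used as given, and a gene with no row in a library was taken as 0. Symbols came from RefSeq (GRCm38.p6, 17951 of 17997 numbers matched), whose build differs from mm8, so its coordinates are given only for the promoter sequences.

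Libraries were compared by FPKM ratios and by log2 ratios with a pseudocount of 1 FPKM. Level intervals are exact Poisson, and ratio intervals exact binomial (Clopper-Pearson), both at 95% and for counting error only. The depth was 9170554 to 9380813 expected reads. Members at 1 FPKM or more in any library are named with their levels, and ratios with intervals are given for called members, leading family members and some others chosen after their values were seen. Of the other pathway genes, those called by the 2-fold rule are named, and so are Ptk7 and Ror1, added after their values were seen. The members, lists and rules were chosen with earlier results of these data known. TMM factors came from edgeR 4.0.16 in R 4.3.3 on expected counts rounded to whole numbers. Python 3.11.15 with pandas 2.3.3 and scipy 1.17.1 did the rest. The rules were run on simulated libraries with counting error only, where 200 well-expressed genes were given large changes. Differences between cultures, changes near 1.5-fold and changes in weakly expressed genes were outside that simulation. Alternatives were pseudocounts of 0.1 and 5, other minimum levels, median-of-ratios and TMM rescaling, expected counts scaled to the library total alone, and 1 length per gene.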

Additional observations from a re-analysis of the deposited data

Results flagged for a closer look

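For 6 measured members the ratio to empty vector P2 lay above 1 at one passage and below 1 at the other, with both counting intervals off 1. The share of all 12894 measured genes that do so was not computed, so the 6 are not shown to be unusual. The difference between the passages was not tested, since each has 1 library, and both ratios share the empty-vector library. Dvl3 (0.718-fold in Lef1 P5, 1.51-fold in Lef1 P2), Dvl2 (0.870-fold and 1.33-fold, in that order), Tnks (0.905-fold and 1.52-fold), Tnks2 (0.881-fold and 1.13-fold) and Lrp6 (0.723-fold and 1.102-fold) were lower in Lef1 P5 and higher in Lef1 P2. Ctnnb1 was higher in Lef1 P5 (1.09-fold) and lower in Lef1 P2 (0.915-fold). The ratio of Lef1 P5 to Lef1 P2 was 0.474 for Dvl3, 0.656 for Dvl2, 0.594 for Tnks, 0.780 for Tnks2, 0.656 for Lrp6 and 1.19 for Ctnnb1. With TMM rescaling the ratio of Lrp6 in Lef1 P2 to empty vector P2 was 0.988, so its direction turned, and that of Tnks2 was 1.013.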

How the results depend on the processing

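With 1 library per group no library could be left out. No paired analysis was possible because each group has 1 library. The median of the members stayed below that of all genes in each of the 3 comparisons under the alternatives run. The counts by the 1.5-fold rule stayed within 1.5 times, at 4 to 8 in Lef1 P5 against empty vector P2, 9 to 14 in Lef1 P2 against empty vector P2 and 9 to 13 in Lef1 P5 against Lef1 P2. Of the members called as deposited, 5 of 6, 8 of 13 and 7 of 13 were called with all 4 rescalings. The small counts of members by the 2-fold rule moved, and the counts of all genes moved too. In Lef1 P5 against empty vector P2 the count was 1 (Dkk3) with a pseudocount of 0.1, against 0. In Lef1 P2 against empty vector P2 it was 0 with a pseudocount of 5, 1 with a minimum of 10 FPKM and 5 with expected counts scaled to the library total alone, against 2. In Lef1 P5 against Lef1 P2 it was 2 with a pseudocount of 0.1, 0 with a pseudocount of 5, 0 with a minimum of 10 FPKM and 4 with those scaled counts, against 1. With median-of-ratios and TMM that 1 was Tle4, higher in Lef1 P5 (2.09-fold and 2.16-fold), in place of Bcl9l. Over all genes the rule called 885 in Lef1 P2 against empty vector P2, 328 with a pseudocount of 5 and 1506 with those scaled counts. In Lef1 P5 against Lef1 P2 the all-gene counts were 926, 281 and 1547 in the same order. A larger pseudocount shrinks the ratio of weakly expressed genes by construction, and a smaller one enlarges it. A minimum of 10 FPKM leaves out Bcl9l, which was at 7.82 FPKM in Lef1 P2, its highest library. Counts scaled to the library total alone are not divided by length, so the same pseudocount and minimum stand for another level in each gene. The cause of the other moves was not tested. Members under 1 FPKM in all libraries rest on few reads, and the 1.5-fold rule leaves them out. With counts scaled to the library total alone, Fzd8 was called higher in Lef1 P5 and Wnt3 in Lef1 P2, both against empty vector P2.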
